A study of Mus musculus with 2 samples.

Results

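This account covers 10 genes of the mouse that mark Langerhans cells or serve antigen presentation by class II molecules of the major histocompatibility complex (MHC), measured in the epidermis of newborn mice. The genes were Cd207, Cd74, H2-Aa, H2-Ab1, H2-Eb1, H2-DMa, H2-DMb1, Ctss, Csf1r and Mfge8. Their probes were chosen by gene symbol, by a rule that uses no measured value, although the gene list itself was drawn up with earlier results of these data known. The array lists 9 of the 10 symbols, and its probes for Cd74 carry the older name Ii and were found by their transcript accession. All 10 of the 17871 genes on the array were thus found, with 17 probes of 25697, 2 of them those of Cd74.

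Epidermis of the back skin was taken at postnatal day 5 from C57BL6 mice and lifted from the dermis with dispase. The control group, CON, carried VDR fl/fl and CaSR fl/fl alleles without Cre. The knockout group, DKO, carried the same floxed alleles together with Cre driven by the keratin 14 (K14) promoter, which removes the vitamin D receptor and the calcium-sensing receptor from keratinocytes. RNA of 3 mice was combined for each group and each combined sample was read on 1 array, so the differences given here have no replicate spread and no test between the groups was possible. The keratin 14 promoter acts in keratinocytes, and Langerhans cells, which belong to the myeloid lineage, are not the cells it is meant to reach.

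Langerhans cells are the resident antigen-presenting cells of the epidermis. Their precursors enter the skin before birth, and in mice they take on langerin and MHC class II in the days after birth. A class II molecule is a dimer of an alpha and a beta chain. It is assembled with the invariant chain, which proteases then trim until only a short peptide fills the groove, and the chaperone H2-DM exchanges that fragment for peptides of the antigen.

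A probe was called detected where its detection p-value, which sets the signal against negative controls of the same array and compares no groups, was under 0.01. On CON 41.9% of probes were detected and on DKO 40.6%. The targeted gene Vdr was detected on each array by its 3 probes, with log2 differences, DKO minus CON throughout, of -0.12, -0.24 and -0.82, and the single probe for Casr lay in the background on both. Whether these probes cover the deleted exons cannot be read from the files, so they check nothing about the labels. Ddx3y, a Y-linked gene, gave 6.89 (log2) for CON and 10.31 for DKO by its brightest probe, so the combined samples also differed in sex-linked transcripts.

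Of the 10 genes, 9 were detected and all 9 read higher on the DKO array by their main probe, taken as the brightest one over both arrays. By the same rule 47.1% of all 8472 detected genes read higher on DKO. Cd207 and H2-Aa were higher by at least 25%, as were 16.6% of all detected genes. None of the 9 differed by 2-fold, a size that 2.44% of all detected genes reached in either direction. The median log2 difference was 0.18 over the 9 genes and -0.02 over all detected genes. As a yardstick, the SD among detected probes of 1 gene, pooled over 2047 genes of the array, was 0.30 (log2), so 6 of the 9 differences, which lay between 0.04 and 0.20, were smaller than that spread. All 9 main probes were detected on both arrays, so the filter on dim probes did not fix their direction.

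**Figure D1:**
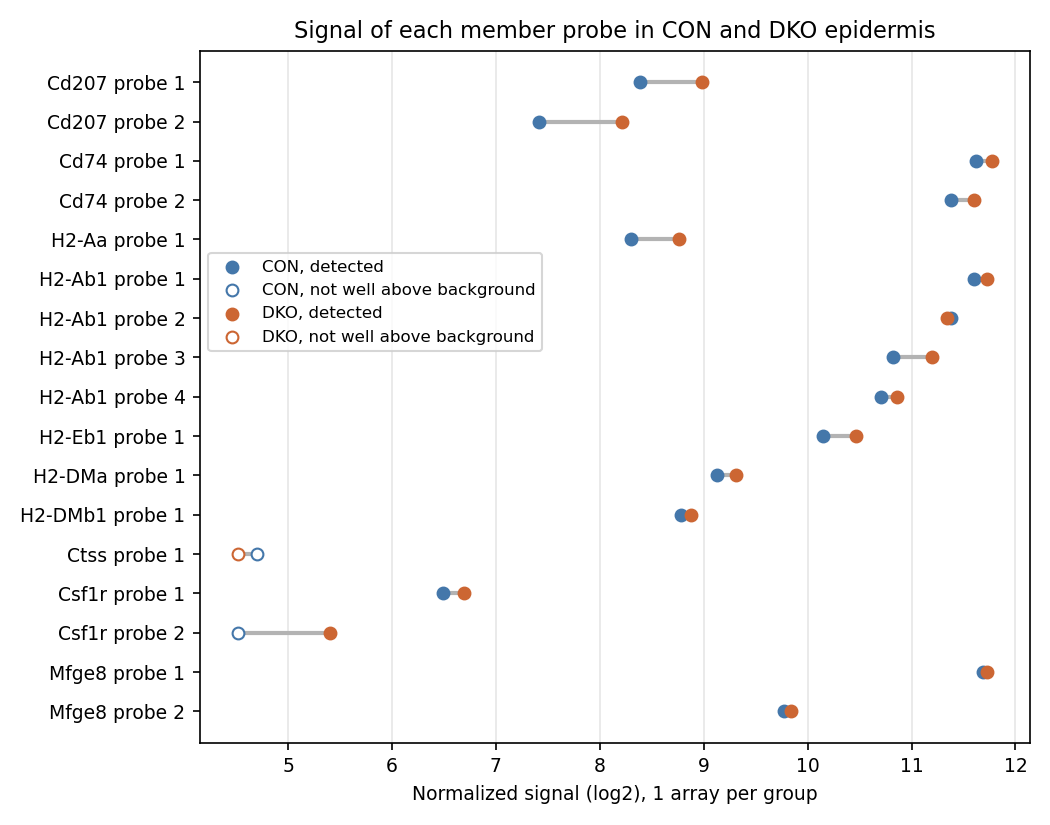
Normalized signal (log2, horizontal axis) of each of the 17 probes for CON and for DKO, with 1 array per group and hence no error bars; open circles mark signals not well above background. The pairs of Cd207 and H2-Aa lie visibly apart, those of Mfge8 nearly coincide, and the Ctss probe lies in the background on both arrays.

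Cd207 encodes langerin, the C-type lectin that forms Birbeck granules and defines Langerhans cells in the epidermis. Its first probe gave a raw signal of 468 on CON and 583 on DKO, which became 8.38 and 8.99 (log2) after background correction and quantile normalization. Its second probe gave 292 and 389, or 7.41 and 8.21. Both probes were higher on DKO, by 1.52-fold and 1.74-fold. The main probe's difference of 0.60 lay at percentile 94.3 of all detected genes, above the other 8 detected members. The raw signals were higher on DKO as well, before any normalization, with log2 ratios of 0.32 and 0.42.

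Csf1r encodes the receptor for the cytokines encoded by Csf1 and Il34, on which Langerhans cells depend. Its brighter probe gave a raw signal of 206 on CON and 209 on DKO, or 6.49 and 6.69 after normalization, a difference of 0.20 (percentile 74.2). Its dimmer probe was not well above background on CON, with a raw signal of 130 and a detection p-value of 0.352, and was detected on DKO at 152 with a detection p-value of 0.00752. With CON set to the lowest signal detected on that array, the dimmer probe was at least 1.09-fold higher on DKO. The fitted difference of this probe, 0.89, is therefore no measure of size, and the brighter probe is the one that measures the gene on both arrays.

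The class II dimers of the mouse are called I-A, made of the products of H2-Aa and H2-Ab1, and I-E, made of those of H2-Ea and H2-Eb1. The genes lie close together on chromosome 17. Their promoters share an arrangement known as the X and Y boxes, bound by the RFX complex and by NF-Y, which together recruit the transactivator CIITA. The promoters of H2-Aa, H2-Eb1 and H2-DMb1 are shown because they hold this arrangement in common (RefSeq, build GRCm38.p6, 5′ to 3′ on the strand of the gene). Capitals mark the letters GNAACT, within the X box, and TGATTGG, the Y box with its inverted CCAAT.
H2-Aa (chr17:34287847-34287924, minus strand): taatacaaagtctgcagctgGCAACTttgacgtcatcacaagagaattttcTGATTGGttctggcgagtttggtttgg
H2-Eb1 (chr17:34305756-34305832, plus strand): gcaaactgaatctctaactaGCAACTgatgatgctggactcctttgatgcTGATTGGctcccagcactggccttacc
H2-DMb1 (chr17:34153077-34153154, plus strand): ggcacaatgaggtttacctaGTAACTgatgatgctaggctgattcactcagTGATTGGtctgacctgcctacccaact

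The start of GNAACT lay 31 bases before the start of TGATTGG in H2-Aa, 30 in H2-Eb1 and 31 in H2-DMb1, and TGATTGG began 50, 61 and 63 bases before the annotated start of transcription. Among 32851 RefSeq promoters of 300 bases (250 before the start and 50 after), searched on both strands, 42.8% held GNAACT and 7.82% held TGATTGG. Only 0.414% held both in this order on 1 strand within 60 bases. These letters were chosen after reading the promoters of the genes. Promoters of H2-DMa, Cd207, Ctss and Mfge8 did not hold the pair, and those of H2-Ab1, Cd74 and Csf1r were not used here. Of 4 further class II genes the pair was found for H2-Eb2 and not for H2-DMb2, H2-Oa or H2-Ob. The search counted exact matches to these letters only, so a promoter without the pair may still hold X and Y boxes spelled differently.

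H2-Aa, the alpha chain of I-A, has 1 probe. It gave a raw signal of 449 on CON and 516 on DKO, or 8.30 and 8.77 (log2) after normalization. The difference of 0.47 (1.38-fold, percentile 90.4) was second to that of Cd207 among the detected members.

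H2-Ab1, the beta chain of I-A, has 4 probes, and they differed among themselves. From the brightest to the dimmest, the raw signals were 3433.5, 2940, 2044 and 1899.5 on CON, against 3300, 2561.5, 2326 and 1848 on DKO. After normalization the differences were 0.12, -0.04, 0.38 and 0.15, so 3 probes read higher on DKO and 1 read lower. Before it, only the probe at 0.38 had a higher signal on DKO. The range across probes of this 1 gene, from -0.04 to 0.38, covers the main differences of all detected members but Cd207 and H2-Aa. The probe that read lower after normalization was designed from a different transcript record than the other 3.

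H2-Eb1, the beta chain of I-E, has 1 probe. It gave a raw signal of 1320 on CON and 1440 on DKO, or 10.15 and 10.46 after normalization. Its difference of 0.31 (1.24-fold, percentile 82.9) lay just short of 25%. The probe of its partner H2-Ea, added after its values were seen, lay in the background on both, where the detection p-value was 0.613 for CON and 0.35 for DKO. Mice of the H2-b haplotype, to which C57BL/6 belongs, are known to carry a deletion at the promoter of H2-Ea and to make no I-E at the cell surface.

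Cd74 encodes the invariant chain. Its probes gave raw signals of 3488 and 2925 on CON and 3428 and 3019 on DKO. After normalization they differed by 0.15 (percentile 69.3) and 0.23, while the log2 ratios of the raw signals were -0.03 and 0.05. The sign of the first probe thus changed with the normalization, whereas the second was higher on DKO before and after it.

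H2-DMa and H2-DMb1 encode the chains of the peptide exchanger H2-DM, and each has 1 probe. H2-DMa gave a raw signal of 716 on CON and 702 on DKO, or 9.13 and 9.31 after normalization, a difference of 0.18 (percentile 72.4). H2-DMb1 gave 585 and 551, or 8.78 and 8.88, a difference of 0.10 (percentile 63.9). Both raw signals were lower on DKO and both normalized signals were higher, so neither gene has a direction that is independent of the scaling.

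Ctss encodes cathepsin S, the protease that makes the last cuts in the invariant chain in many antigen-presenting cells. Its 1 probe read 136 on CON and 129 on DKO, with detection p-values of 0.137 and 0.353. Neither was above background, so no fold is given, and the array gives no view of this step.

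Mfge8 encodes a secreted glycoprotein that bridges phosphatidylserine on dying cells to integrins on phagocytes. It is made by Langerhans cells and by other cells too. Its probes, designed from different transcript records, gave raw signals of 3619 and 1048 on CON and 3307 and 970 on DKO. The normalized differences were 0.04 (percentile 58.0) and 0.07, and the first of these was the smallest among the main probes of the detected members.

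**Figure D2:**
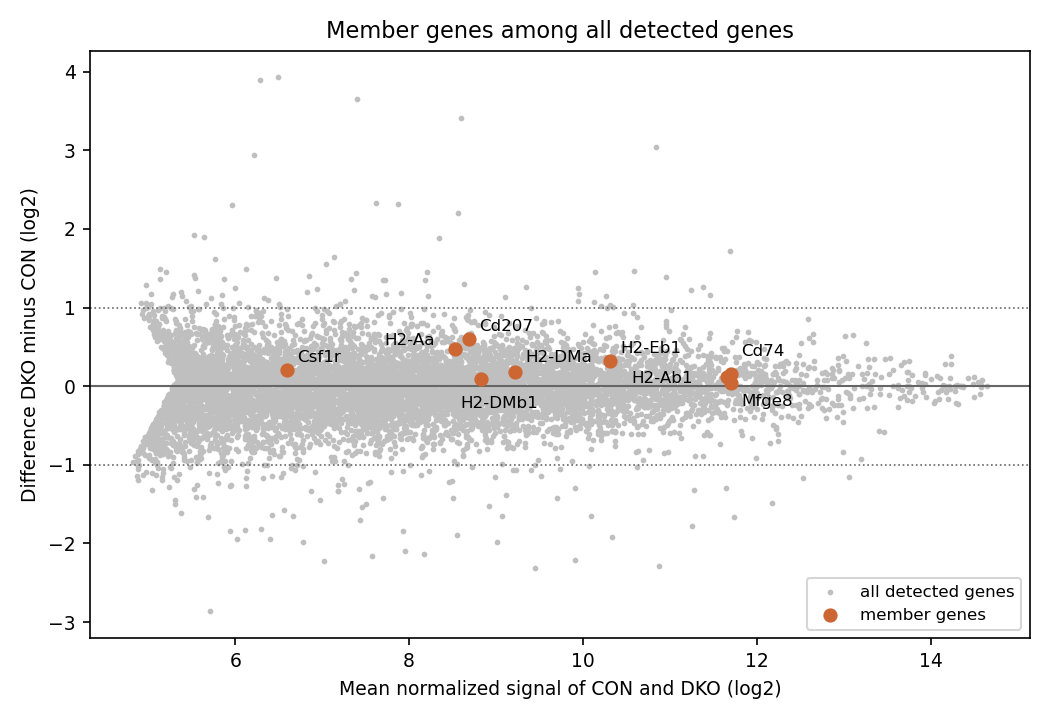
Difference DKO minus CON (log2, vertical axis) against the mean normalized signal of both arrays (log2, horizontal axis), with grey points for the 8472 detected genes, orange points for the 9 detected members and dotted lines at a 2-fold difference. The members lie above 0 from dim to bright signals, with Cd207 and H2-Aa the farthest from it, and all lie within the dotted lines.

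The share of members that read higher depended on how the arrays were scaled. The raw signal was higher on DKO at 8 of the 16 detected member probes and lower at 8, with a median log2 ratio of -0.003. Over all detected probes 30.4% had a higher raw signal on DKO and the median log2 ratio was -0.10. After quantile normalization 15 of the 16 member probes and 49.2% of all detected probes read higher. With median scaling, under which the median of all detected genes was -0.13, 7 of 9 member genes and 35.6% of all detected genes read higher. The members Mfge8 and H2-DMb1 read lower at -0.07 and -0.05. Among the higher ones, H2-Ab1, H2-DMa and Cd74 lay at only 0.0008, 0.03 and 0.03. Set against the median of all detected genes, the member median was higher by 0.20 under quantile normalization and by 0.16 under median scaling, and all 9 members lay above that median under both. The probes of Cd207, H2-Aa, H2-Eb1 and Csf1r were higher on DKO in the raw signal and under each scaling.

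**Figure D3:**
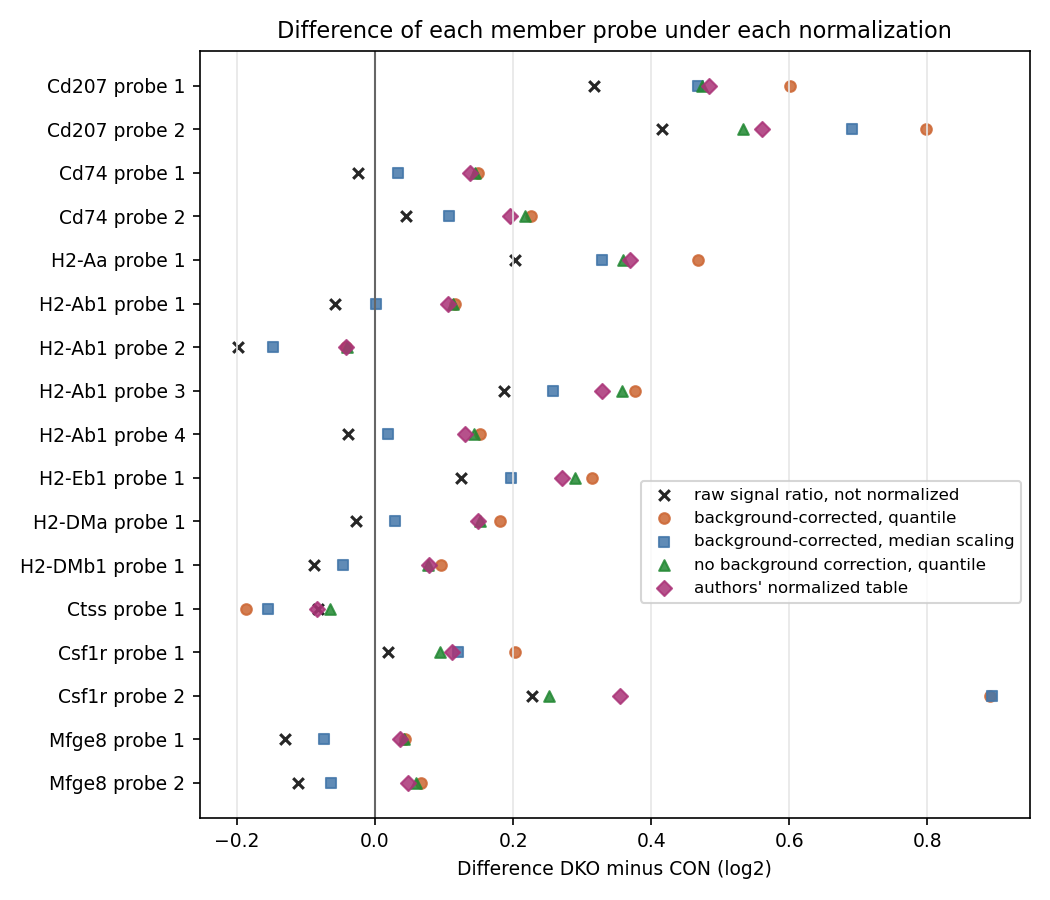
Difference DKO minus CON (log2, horizontal axis) of each of the 17 member probes, as the ratio of raw signals and under 4 ways of normalizing, with a line at 0. The raw ratios lie leftmost for most probes, and Cd207, H2-Aa and H2-Eb1 stay to the right of 0 under each.

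Other genes of the class II pathway were split in sign. Of 22 listed genes 14 were detected, 8 higher and 6 lower, with a median of 0.15, or 0.12 with dim signals at their bound. Among the lower ones, Ctsd was not well above background on DKO and gives no fold. The thiol reductase gene Ifi30 (GILT), which unfolds antigens in the endosome, read 9.86 on CON and 10.55 on DKO, and its probes differed by 0.70 and 0.86. Rfxank, a subunit of the RFX complex, was at least 1.73-fold higher and Nfya, a subunit of NF-Y, at least 1.18-fold higher, and neither was well above background on CON. The other detected subunits were Rfxap at 0.20, and Nfyb and Nfyc, detected on both arrays, at -0.26 and -0.17. The transactivator gene Ciita read 5.80 on CON and 5.43 on DKO, both near the lowest detected signals of 5.28 and 5.38, a difference of -0.37. After normalization its sign was opposite to that of the main probes of the class II chains. In the raw signal Ciita (170 and 152) and the main probe of H2-Ab1 (3433.5 and 3300) were both lower on DKO, and H2-Aa and H2-Eb1 were higher. In the class I pathway 12 genes were detected, 6 higher and 6 lower, with a median of -0.01. Among them Tapbpl, a peptide editor, differed by 0.47, Psmb9, a subunit of the immunoproteasome, by -0.46, the tapasin gene Tapbp by 0.25 and the proteasome activator gene Psme2 by 0.25. In the interferon gamma response, which drives class II in many cells, 6 genes were detected, 4 higher and 2 lower, with a median of 0.13. The receptor chain genes Ifngr1 and Ifngr2 differed by 0.66 and 0.17 and the GTPase gene Irgm1 by 0.32. Detected probes of Ifngr2 ranged from -0.42 to 0.34. The chemokine gene Cxcl10, counted as lower, was detected on CON alone and gives no fold.

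Further genes of Langerhans cells were mostly not detected. Of 19 listed, 18 were on the array and 7 were detected. The integrin gene Itgax, the lectin gene Ly75 and the transcription factor genes Irf8, Spi1 and Runx3 were not detected. Among the 7, 5 were higher and 2 lower, with a median of 0.22. Cd1d1, which presents lipids, read 5.42 on CON and 6.13 on DKO, a difference of 0.72. The receptor kinase genes Tyro3 and Axl differed by 0.69 and -0.47, and their ligand gene Gas6 by 0.36. Keratinocytes and other cells also express these receptors and Gas6, so the list is not one of Langerhans cells alone. The transcription factor gene Id2 differed by -0.32, the leukotriene synthase gene Ltc4s by 0.22 and the receptor kinase gene Mertk by 0.05.

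Signals that Langerhans cells receive in the epidermis differed in sign from gene to gene. Il34, the CSF1R ligand made by keratinocytes, read 8.02 on CON and 8.62 on DKO, a difference of 0.60. The other ligand gene, Csf1, was not called detected: its detection p-value was 0.758 for CON and 0.0113 for DKO, the latter just over the threshold. Itgb6, whose product pairs with the alpha-v integrin to activate latent TGF-beta, read 9.05 and 8.27, a difference of -0.79, with its detected probes between -0.79 and -0.11. Tgfb2 differed by -0.75, Tgfb3 by -0.30, Tgfbr1 by -0.17, Tgfb1 by -0.14 and Tgfbr2 by 0.10, and Itgav, the alpha-v chain, lay in the background on DKO and was at least 1.37-fold lower there. Outside the TGF-beta genes, Notch1 and Cdh1 differed by -0.51 and -0.50. Of the 12 genes detected here 3 were higher and 9 lower, with a median of -0.29.

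Markers of other immune and skin cells were examined beside these values, since class II genes are not confined to Langerhans cells. In the pan-leukocyte and myeloid list 10 genes were detected, 6 higher and 4 lower with a median of 0.31. Among the lower ones, Aif1 was not well above background on DKO and gives no fold, and its other detected probe read 0.63. The summed signal of the list was 11.76 (log2) on CON and 11.67 on DKO, with Laptm5 its brightest gene at 10.75 and 10.49. The immunoreceptor adaptor gene Fcer1g read 7.19 and 8.09, a difference of 0.91, the receptor genes Csf2ra and Fcgr3 differed by 0.87 and 0.56, and Lyz1 was at least 1.59-fold higher. Its near-identical relative Lyz2 was not detected, and signal on either lysozyme probe may come from both genes. Laptm5 and Coro1a, expressed across leukocytes, differed by -0.26 and -0.35, although the detected probes of Coro1a ranged from -0.35 to 0.26. The pan-leukocyte gene Ptprc was not detected on either array.

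Of 9 dermal macrophage and monocyte genes on the array 1 was detected, the complement gene C1qb at 0.29, and the list's summed signal was 5.60 on CON and 5.90 on DKO. Adgre1, Mrc1, Cd163 and Ccr2 lay in the background on both arrays. All 5 B cell genes were likewise in the background. Of 8 dermal dendritic cell genes 3 were detected. Among these Itgae, which epidermal T cells also express, differed by 0.26, Sirpa by -0.09, and Xcr1 was detected on CON alone. The mast cell and neutrophil list had 1 of 5 genes detected, Cpa3, on CON alone. Of 6 detected T cell genes 4 were lower on DKO by at least 20%, as were 20.2% of all detected genes, and their median was -0.50. The other two, Cd3d and Cd3g, both differed by 0.03. The summed signal of the T cell list was 11.06 on CON and 10.82 on DKO. Lck, Nkg7, Thy1 and Cd3e differed by -0.70, -0.65, -0.55 and -0.44. Melanocyte genes had a median of -0.38, with all 4 detected genes lower, although another probe of Pmel read 0.26 and another of Tyrp1 0.13. The 6 keratinocyte genes, all detected, had a median of 0.00, with Krt1 at 0.64, Ivl at -0.44, Lor at -0.07 and Krt5 at 0.04. The summed signal of the 9 detected members was 13.60 on CON and 13.76 on DKO, set mainly by the bright genes Cd74, H2-Ab1 and Mfge8. What part changes in the makeup of the tissue have in these values was not tested, and in such bulk samples more cells of a type and more RNA per cell cannot be told apart.

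**Figure D4:**
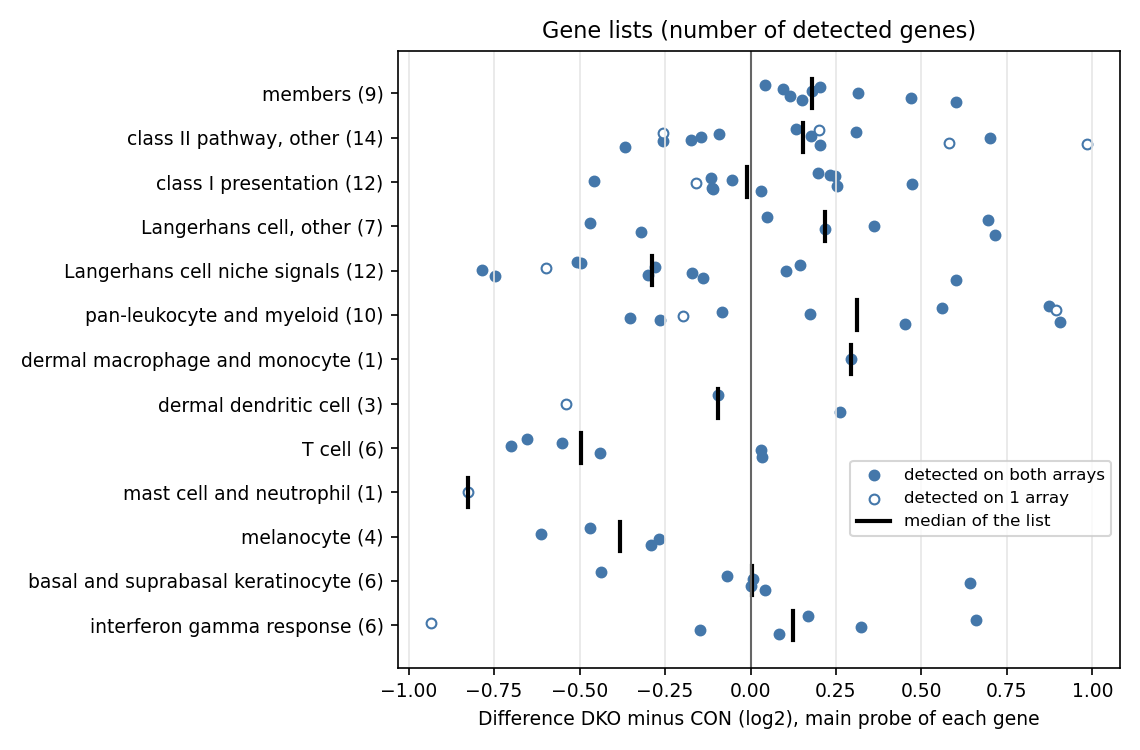
Difference DKO minus CON (log2, horizontal axis) of the main probe of each detected gene, by gene list, with the number of detected genes in brackets, black bars at the list's median and open circles for genes detected on 1 array. The members lie to the right of 0 with a median of 0.18. Positive medians also hold for the pan-leukocyte and myeloid list (0.31), other Langerhans cell genes (0.22) and other class II pathway genes (0.15). The same is true of the interferon gamma response (0.13) and the 1 dermal macrophage and monocyte gene (0.29). The keratinocyte median is 0.00. The T cell and melanocyte medians lie at -0.50 and -0.38 and that of the Langerhans cell niche signals at -0.29. The dermal dendritic cell and class I medians are -0.09 and -0.01, and the 1 mast cell gene lies at -0.83.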

How the data were processed

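The deposited tables hold the average raw intensity of each probe without background subtraction and, per the file headers, its detection p-value. The authors also deposited normalized intensities on a linear scale. How these were normalized is not stated in the labels or headers. Their medians were 148.8 on CON and 148.9 on DKO. The series' value table differs from it at 0 probes. GenomeStudio 2011.1 is named in the submitters' processing notes.

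Raw intensities were corrected in R 4.3.3 with limma 3.58.1, by normexp whose parameters were estimated through the detection p-values (offset 16). They were then quantile normalized and put on the log2 scale. Median raw signals were 140.5 on CON and 138 on DKO. A gene entered when its main probe had a detection p-value under 0.01 on at least 1 array. Where 1 side was dim, a bound was computed from the higher of its own signal and the lowest detected signal. Precision is limited by the number of arrays. The steps were tested on simulated arrays in which bright probes were changed by at least 1.25-fold. That test says nothing of smaller differences or of a shift in scale between arrays.

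Names came from gene identifiers, accessions and symbols matched to a RefSeq gene table of GRCm38.p6: 16938 probes matched by identifier, 7420 by accession, 465 by current symbol, 553 by an older symbol, and 321 kept the array's name. All members were described, with up to 4 detected genes of each other list by absolute difference. Outside that rule came genes named as undetected, relatives and partners of named genes, further genes of the same lists such as Aif1, Ctsd, Cdh1 and Notch1, and H2-Ea. The members and lists were chosen with earlier results of these data known. No genes were named for likeness of pattern, since each gene has 1 difference.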

Additional observations from a re-analysis of the deposited data

How the results depend on the processing

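The results were recomputed without background correction, with a normexp offset of 50, with median scaling, from the authors' deposited table as log2(value + 1), with 3 other filters on dim probes, with probes averaged and, chosen after seeing the data, without Cd74. Under these 9 alternatives the member median stayed between 0.03 (median scaling) and 0.19, 2 members were higher by at least 25% (3 with probes averaged, where the dim Csf1r probe enters the mean), and 0 were 2-fold apart. All detected members read higher, except that 7 of 9 did with median scaling and 9 of 10 without the filter, where Ctss entered. Of all genes entered, 35.6% read higher with median scaling and between 47.1% and 49.3% under the other alternatives. With median scaling, H2-Ab1, H2-DMa and Cd74 were higher by only 0.0008, 0.03 and 0.03. Of 68 alternative values of single probes 65 moved by less than the pooled SD among probes, and the 3 that moved further were of the dim Csf1r probe, at 0.25, 0.43 and 0.35. That SD was larger than 6 of the 9 main differences. A difference could thus vanish and still be counted among the 65, so this count cannot show stability. Detected probes changed sign in 3 of the alternative values, for H2-DMb1 and both Mfge8 probes under median scaling. All alternatives reuse the same arrays. No paired analysis was possible because each group has 1 array, and leaving out a replicate was not possible for the same reason. Dim probes limit what can be said of Ctss, Ciita, Csf1 and most macrophage and dendritic cell genes.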
